A study of Mus musculus with 9 samples.

Results

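The Hox genes of mouse heart-derived cells are described here across 3 groups of cultured cells. The genes were taken from the deposited gene table as every protein-coding gene whose symbol is Hoxa, Hoxb, Hoxc or Hoxd followed by a number. This gave 40 gene identifiers, with 39 symbols, among the 54532 genes of the table, since Hoxd4 is listed under 2 identifiers. The rule used names only and no measured value.

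Hox genes encode homeodomain transcription factors that mark the position of a cell along the head-to-tail axis of the embryo. In mammals they lie in clusters called HoxA, HoxB, HoxC and HoxD, and genes with the same number in different clusters are paralogs, which together form a paralog group. Along each cluster the low-numbered genes are activated first and furthest forward in the embryo and the high-numbered genes last and furthest back, and mesenchymal cells of adult organs are known to keep a Hox pattern of this kind in culture. Retinoic acid signalling acts mainly on the low-numbered genes in the embryo, and Polycomb and Trithorax proteins hold the genes in a silent or an active state.

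RNA was sequenced from cells that grew out of C57BL/6 mouse heart ventricle tissue and passed through a cardiosphere stage, and each group held 3 libraries. The first group was primary cells (pECDCs, labelled as primary cardiosphere-derived cells), which the study describes as raised from the ventricular epicardium of adult mice. No transgene is named for them. The second group was iECDCs, the same kind of cells immortalised with human telomerase reverse transcriptase (hTERT) and grown to passage 30. The third group had received SB431542, which blocks signalling by the type I receptor of TGF-β. For the treated libraries the labels name immortalised cells at passage 30 exposed for 3 days, whereas the study's methods name a single epithelial clone derived from pECDCs, so both other groups were used as its reference and neither the source of the cells nor clonal selection can be told apart from the treatment. The study's discussion also gives a longer time, in days, until epithelial clones were seen under SB431542, so the exposure time is uncertain too. hTERT was delivered by a lentivirus with a CMV promoter followed by drug selection. How many clones the iECDC line holds was not given in the sources used here. The p-values measure the spread between these libraries, which may be technical, because the labels do not say that the libraries of a group came from separate cultures, and the study's methods name fewer biological replicates per condition than the libraries of a group.

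The 9 libraries held 16568306 to 23951392 counts. All 9 carried the fibroblast collagens Col1a1 and Col1a2, and 5 of 7 fibroblast or mesenchymal markers reached a mean of 1 FPKM in pECDCs, 5 of 7 in iECDCs and 6 of 7 in treated cells. FPKM, fragments per kilobase of gene model scaled to the library total, is a level per length. Of the 5 epicardial markers, Tbx18 stood at 18.8 to 41.8 FPKM in single libraries, but Wt1 did not exceed 0.40 FPKM in any. Both had their highest means in treated cells. Tbx18 had means of 19.6, 22.4 and 34.8 FPKM in pECDCs, iECDCs and treated cells, and Wt1 0.0484, 0.0119 and 0.284 FPKM. Other markers of these lists differed between the groups in either direction. Aldh1a2 had means of 5.50, 2.82 and 0.429 FPKM in pECDCs, iECDCs and treated cells, whereas Upk3b (0.130, 0.120 and 1.28 FPKM), Tcf21 (0.731, 0.516 and 1.43 FPKM) and the mesenchymal marker Dcn (0.768, 0.470 and 13.2 FPKM) had their highest means in treated cells. The defining endothelial markers (Pecam1, Cdh5 and Kdr) and epithelial markers (Epcam, Cdh1 and Krt5) summed to at most 0.144 and 0.0459 FPKM in any library, the 4 cardiomyocyte markers to at most 1.68 FPKM and the 3 blood markers to at most 2.04 FPKM. Epcam, Cdh1 and Krt5 were thus near 0 in the treated libraries too, at 0.0121 to 0.0208 FPKM summed. This list leaves out other epithelial genes, so it cannot decide whether the treated cells were epithelial. Smooth muscle markers also moved with the groups, led by Acta2, with sums of 720 to 742 FPKM in pECDCs, 815 to 1918 FPKM in iECDCs and 139 to 329 FPKM in treated cells, and the part of all these markers in the Hox results was not tested. In these bulk libraries fewer cells that express a gene and less RNA per cell cannot be told apart. Library 3 of the iECDCs and library 2 of the treated cells stood apart from the other libraries of their groups: over genes, chi-square divided by its degrees of freedom was 24.9 and 30.8 for pairs with the former against 4.61 for the remaining iECDC pair, and 70.3 and 71.5 for pairs with the latter against 3.79 for the remaining treated pair, while the pECDC pairs gave 2.70 to 4.23.

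The cells carried a Hox pattern of the low and middle paralog groups of HoxA and HoxB. Hoxa2 to Hoxa7 and Hoxb2 to Hoxb4 reached a mean of at least 1 FPKM in a group. Another 6 (Hoxb5, Hoxb6, Hoxc4, Hoxc5, Hoxc6 and Hoxd8) had more than 4 counts in at least 1 library. Of the 40 identifiers, 24 never exceeded 4 counts, and 14 of them were at 0 counts in all 9 libraries. A count of 0 over the 9 libraries allows up to 3 counts, or 0.0172 CPM, counts scaled to library totals (counting error only).

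**Figure D1:**
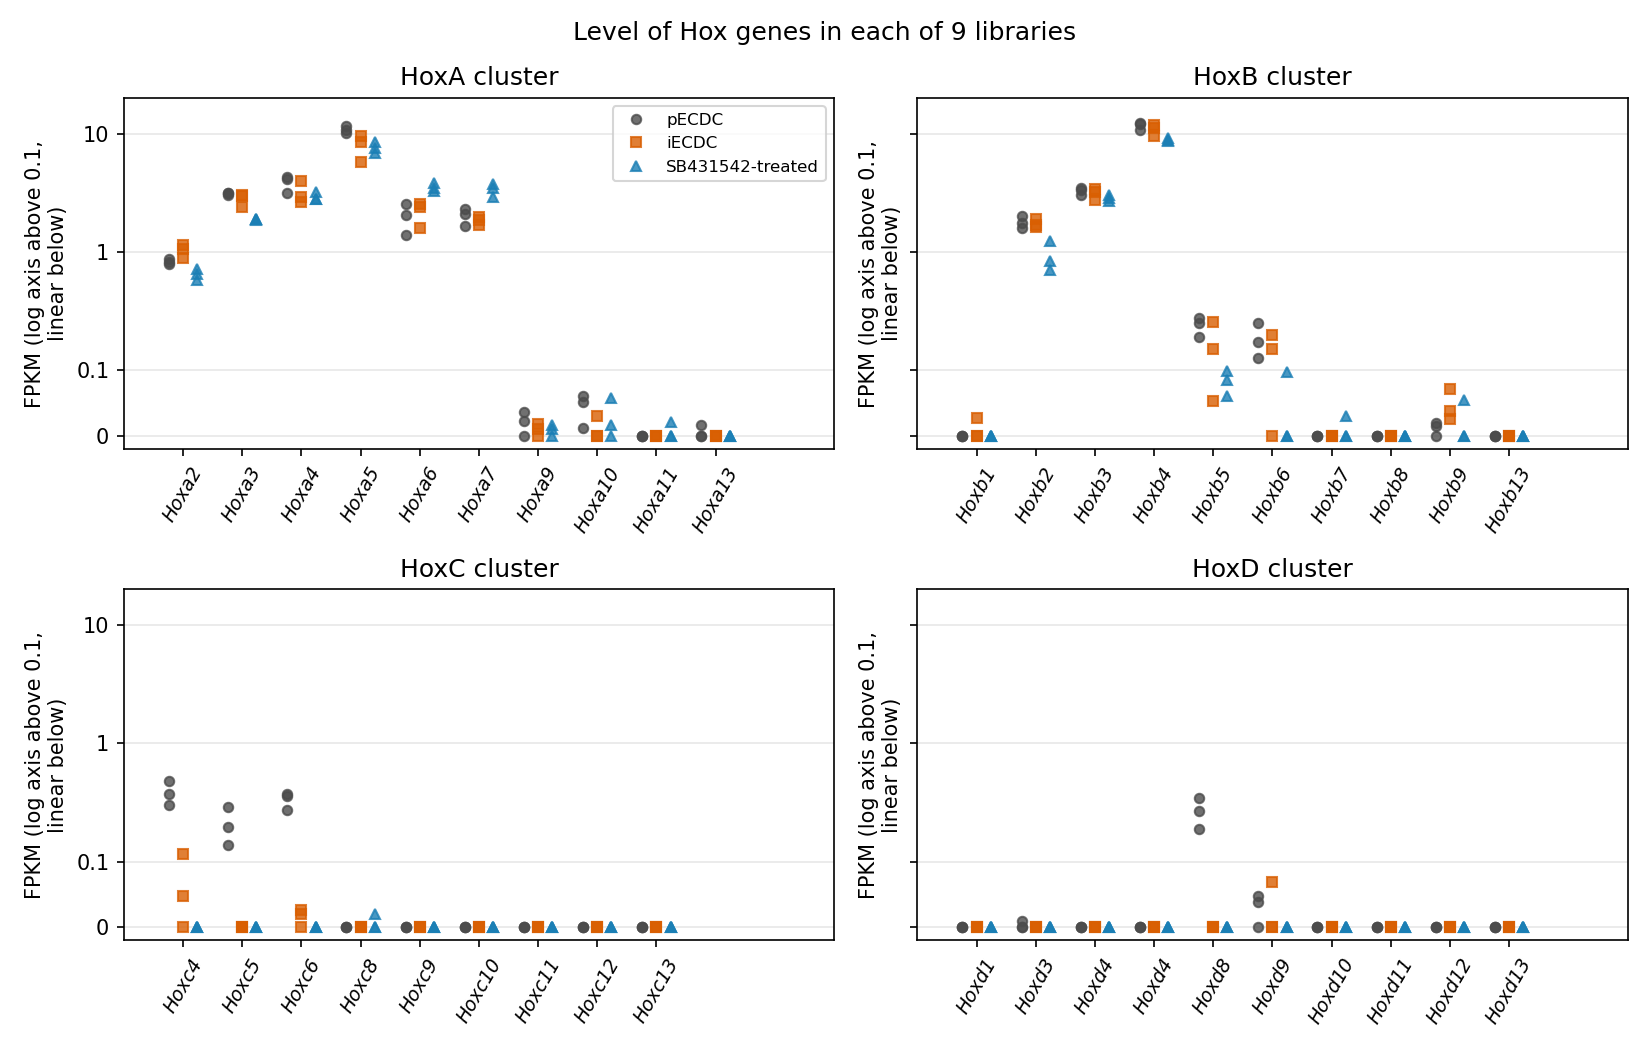
Level of each Hox gene described here in each of the 9 libraries, in FPKM, by cluster and in order of paralog group (the axis is logarithmic above 0.1 and linear below). Circles are pECDC, squares iECDC and triangles SB431542-treated libraries. Hoxa2 to Hoxa7 and Hoxb2 to Hoxb4 sit above 0.5 FPKM in every library, all HoxC and HoxD genes sit below it, and HoxC and HoxD points above 0.1 FPKM are from pECDC libraries but for 1 iECDC library of Hoxc4; Hoxd4 appears under both of its identifiers.

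Taking more than 4 counts in a library as the limit, the pattern reached paralog group 8 only in pECDCs, through Hoxd8 alone. In iECDCs and treated cells it ended with paralog group 7. Paralog group 8 summed to 0 FPKM in iECDCs and 0.00671 FPKM in treated cells. All 16 genes with more than 4 counts in a library were among the 24 identifiers of paralog groups 1 to 8, and none was among the 16 identifiers of paralog groups 9 to 13. The 9-to-13 groups, which pattern the lower trunk, limbs and genitalia in the embryo, received 49 of the 17821 Hox counts of the 9 libraries (0.275%, 95% Wilson interval 0.208% to 0.363%, counting error only), with no more than 4 in any library for any gene. Those 49 counts fell mainly on Hoxa9, Hoxa10, Hoxb9 and Hoxd9. Among the low-numbered genes Hoxb1, Hoxd1 and Hoxd3 were also nearly silent, with 1, 0 and 1 counts over the 9 libraries.

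Levels per length peaked at paralog groups 4 and 5. Summed over paralogs, group 4 stood at 15.9 ± 0.701 FPKM in pECDCs, 14.1 ± 1.57 in iECDCs and 11.8 ± 0.238 in treated cells (SD, n = 3). Paralog group 5 stood at 11.2 ± 0.720, 8.10 ± 1.84 and 7.73 ± 0.815 FPKM in the same order. The paralog groups on either side were lower, with group 3 at 6.39 ± 0.240 FPKM and group 6 at 2.51 ± 0.458 FPKM in pECDCs. The sum of group 4 rested mainly on Hoxb4 with Hoxa4, and that of group 5 on Hoxa5.

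Hoxb4 and Hoxa5 were the highest Hox genes in each group of cells. Hoxb4, known from blood stem cell expansion as well as from patterning of the neck region, was at 12.2, 10.7 and 12.1 FPKM in the pECDC libraries, 11.1, 11.9 and 9.64 FPKM in the iECDC libraries and 8.78, 8.63 and 9.23 FPKM in the treated libraries. Hoxa5, which is required for the development of the lung and airway mesenchyme, was at 10.6, 11.5 and 10.1 FPKM in pECDCs, 9.53, 8.52 and 5.79 FPKM in iECDCs and 8.51, 7.60 and 6.84 FPKM in treated cells. The ranges of these 2 genes overlapped in pECDCs and did not overlap in iECDCs and treated cells, where Hoxb4 was higher. Together they made up 52.0% ± 0.852 of the summed Hox FPKM in pECDCs, 50.3% ± 3.46 in iECDCs and 47.6% ± 0.510 in treated cells (SD, n = 3).

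The HoxA genes of paralog groups 2 and 3 stood below them. Hoxa2, the patterning gene of the second pharyngeal arch, was the lowest of the genes named above, at 0.873, 0.792 and 0.820 FPKM in pECDCs, 0.893, 1.06 and 1.14 FPKM in iECDCs and 0.578, 0.723 and 0.655 FPKM in treated cells. Hoxa3, needed for the thymus, parathyroid and great vessels of the neck, was at 3.18, 3.03 and 3.15 FPKM in pECDCs, 2.95, 3.01 and 2.39 FPKM in iECDCs and 1.89, 1.86 and 1.89 FPKM in treated cells. The treated libraries were thus the lowest of all for Hoxa2 and Hoxa3, with no overlap with either other group.

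The HoxB members of these paralog groups gave a similar range. Hoxb2, a hindbrain gene, was at 2.0, 1.58 and 1.77 FPKM in pECDCs, 1.92, 1.64 and 1.70 FPKM in iECDCs and 0.703, 1.24 and 0.841 FPKM in treated cells. The highest treated value came from library 2, the one that stood apart, and lay below all 6 values of the other groups. Hoxb3 was at 3.46, 3.31 and 3.03 FPKM in pECDCs, 2.75, 3.22 and 3.43 FPKM in iECDCs and 2.71, 2.87 and 3.02 FPKM in treated cells. Treated and iECDC libraries overlapped for Hoxb3.

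The remaining expressed HoxA genes differed in which group was high. Hoxa4 was at 3.17, 4.29 and 4.11 FPKM in pECDCs, 3.98, 2.90 and 2.65 FPKM in iECDCs and 2.79, 3.19 and 2.81 FPKM in treated cells, with overlap between all groups. Hoxa6 was at 1.4, 2.53 and 2.06 FPKM in pECDCs, 2.38, 1.60 and 2.53 FPKM in iECDCs and 3.85, 3.26 and 3.48 FPKM in treated cells. Hoxa7, a trunk patterning gene, was at 2.08, 1.66 and 2.32 FPKM in pECDCs, 1.88, 1.99 and 1.70 FPKM in iECDCs and 3.79, 2.91 and 3.44 FPKM in treated cells. For Hoxa6 and Hoxa7 every treated library exceeded every library of the other groups.

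**Figure D2:**
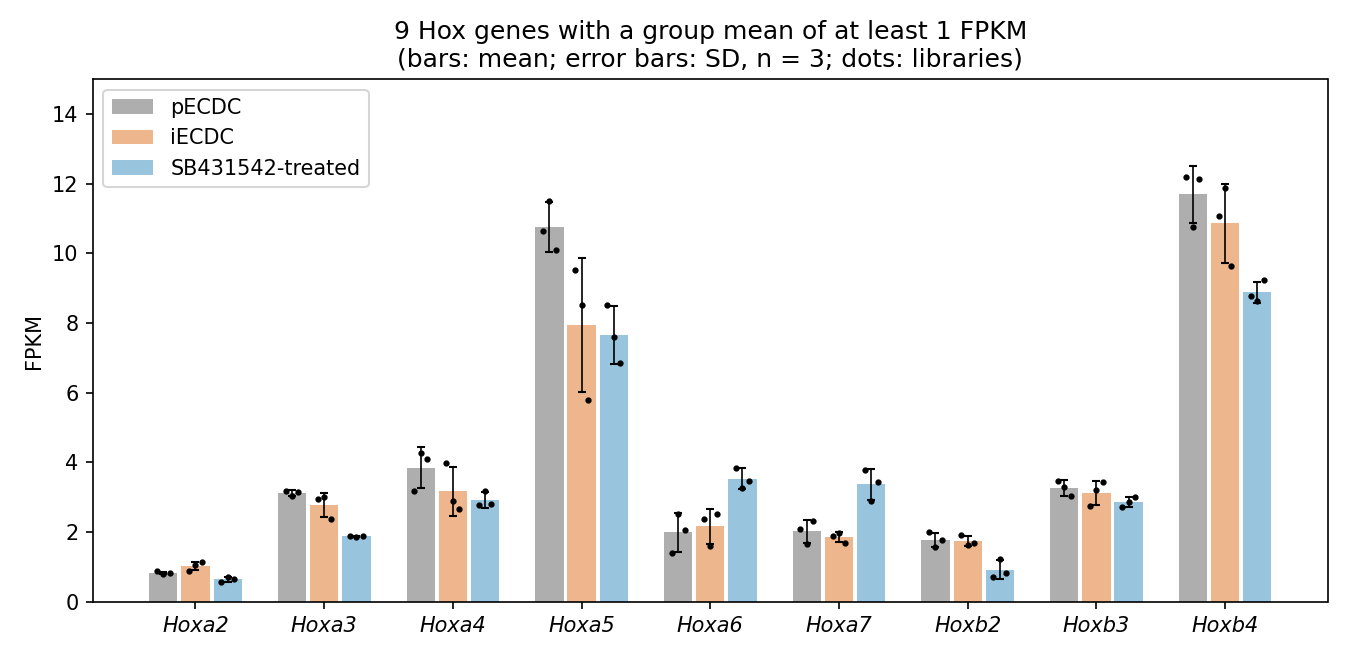
Level in FPKM of 9 Hox genes that reached a mean of 1 FPKM in a group. Bars are the means of 3 libraries, error bars the SD and dots the single libraries; the treated bars are the highest for Hoxa6 and Hoxa7 and the lowest for the other 7 genes shown.

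In order of mean level, the pECDC ranking ran from Hoxb4 and Hoxa5 through Hoxa4, Hoxb3 and Hoxa3, then Hoxa7, Hoxa6 and Hoxb2, to Hoxa2. Neighbours within each of these steps overlapped in range and did not differ beyond their spread, while the steps between Hoxa5 and Hoxa4, Hoxa3 and Hoxa7, and Hoxb2 and Hoxa2 were larger than the spread of the libraries. The iECDC order was the same except that Hoxa6 came before Hoxa7, with overlap. In treated cells Hoxa6 and Hoxa7 came next after Hoxa5, at 3.53 ± 0.296 and 3.38 ± 0.442 FPKM (SD, n = 3). The treated range of Hoxa7 overlapped those of Hoxa6, Hoxa4 and Hoxb3, so its rank among them is not resolved. Hoxa6 and Hoxa7 together, a pair picked out after its values were seen, made up 9.30% ± 1.08 of the summed Hox FPKM in pECDCs, 10.9% ± 1.71 in iECDCs and 19.9% ± 1.55 in treated cells.

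Windows of 250 bases upstream of the RefSeq start site (GRCm38.p6) are shown for 4 genes on which the results turn: Hoxb4, the gene with the highest mean in each group, Hoxa7, the gene called higher in treated cells against both other groups, and Hoxc4 and Hoxd8, which had reads mainly or only in pECDCs. Capitals mark CpG dinucleotides, and each window reads 5′ to 3′ toward the start site. The windows are chr11:96318017-96318266 on the plus strand for Hoxb4, chr6:52218574-52218823 on the minus strand for Hoxa7, chr15:103034145-103034394 on the plus strand for Hoxc4 and chr2:74704365-74704614 on the plus strand for Hoxd8. The Hoxa7 window lies inside the gene span of the table, which ends further upstream at chr6:52221854, and the Hoxc4 window lies inside the Hoxc4 span, which begins at chr15:103018934.
Hoxb4: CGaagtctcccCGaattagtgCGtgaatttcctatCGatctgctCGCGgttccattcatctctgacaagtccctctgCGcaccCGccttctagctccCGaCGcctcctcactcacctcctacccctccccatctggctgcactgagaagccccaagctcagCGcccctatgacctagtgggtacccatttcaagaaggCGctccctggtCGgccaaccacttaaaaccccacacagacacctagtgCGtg
Hoxa7: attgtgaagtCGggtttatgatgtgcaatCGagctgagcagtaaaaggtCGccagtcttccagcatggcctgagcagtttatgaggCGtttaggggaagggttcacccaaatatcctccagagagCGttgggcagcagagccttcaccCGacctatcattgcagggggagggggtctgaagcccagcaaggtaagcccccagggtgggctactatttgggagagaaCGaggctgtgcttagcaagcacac
Hoxc4: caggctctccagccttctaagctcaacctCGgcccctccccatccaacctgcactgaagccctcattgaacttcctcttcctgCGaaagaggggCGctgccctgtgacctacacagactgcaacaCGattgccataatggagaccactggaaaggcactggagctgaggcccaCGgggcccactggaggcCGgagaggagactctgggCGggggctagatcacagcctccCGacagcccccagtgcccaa
Hoxd8: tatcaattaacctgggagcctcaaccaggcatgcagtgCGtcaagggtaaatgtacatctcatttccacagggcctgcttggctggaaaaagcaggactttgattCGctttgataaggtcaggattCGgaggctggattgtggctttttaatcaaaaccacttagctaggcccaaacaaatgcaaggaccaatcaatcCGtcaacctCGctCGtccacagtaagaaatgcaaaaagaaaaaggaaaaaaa

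The 4 windows held 14, 7, 8 and 6 CpG dinucleotides in the order shown, the highest number being that of Hoxb4. Of the 39 symbols, 22 matched a RefSeq window, with 24 windows in all. The Hox windows held a median of 12.5 CpG dinucleotides per 250 bases, from 2 to 35, against a median of 6 over all 32851 RefSeq windows. The 8 windows of Hox genes with more than 4 counts in a library held a median of 11 and the 16 windows of the other Hox genes one of 12.5. The motif TGATTNAT, the type of site that Hox proteins bind together with Pbx proteins, was found on either strand in 2 of the 24 Hox windows (Hoxa2 and 1 window of Hoxd11) and in 2.82% of all windows. A match is a description of the letters and not a binding site.

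The clusters lie on chromosome 6 (HoxA, 52155590 to 52260880, minus strand), chromosome 11 (HoxB, 96194316 to 96368256, plus strand), chromosome 15 (HoxC, 102921103 to 103036852, plus strand) and chromosome 2 (HoxD, 74668310 to 74765142, plus strand), in the coordinates of the deposited table, which match GRCm38. The sum over the HoxA genes was 24.8 ± 0.906 FPKM in pECDCs, 21.1 ± 3.03 in iECDCs and 21.9 ± 1.60 in treated cells. The sum over the HoxB genes was 17.2 ± 1.05, 16.1 ± 0.848 and 12.8 ± 0.500 FPKM in the same order (SD, n = 3). HoxA sums overlapped between iECDCs and treated cells, whereas the HoxB sums of the treated libraries, at 12.3 to 13.2 FPKM, lay below those of all other libraries.

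HoxC and HoxD contributed little. HoxC summed to 0.927 ± 0.0772 FPKM in pECDCs, 0.0702 ± 0.0581 in iECDCs and 0.00671 ± 0.0116 in treated cells. HoxD summed to 0.299 ± 0.105 FPKM in pECDCs and 0.0232 ± 0.0402 FPKM in iECDCs, and every HoxD gene was listed at 0 in the treated libraries. All Hox genes together summed to 43.2 ± 0.298 FPKM in pECDCs, 37.3 ± 3.59 in iECDCs and 34.7 ± 1.12 in treated cells (SD, n = 3).

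**Figure D3:**
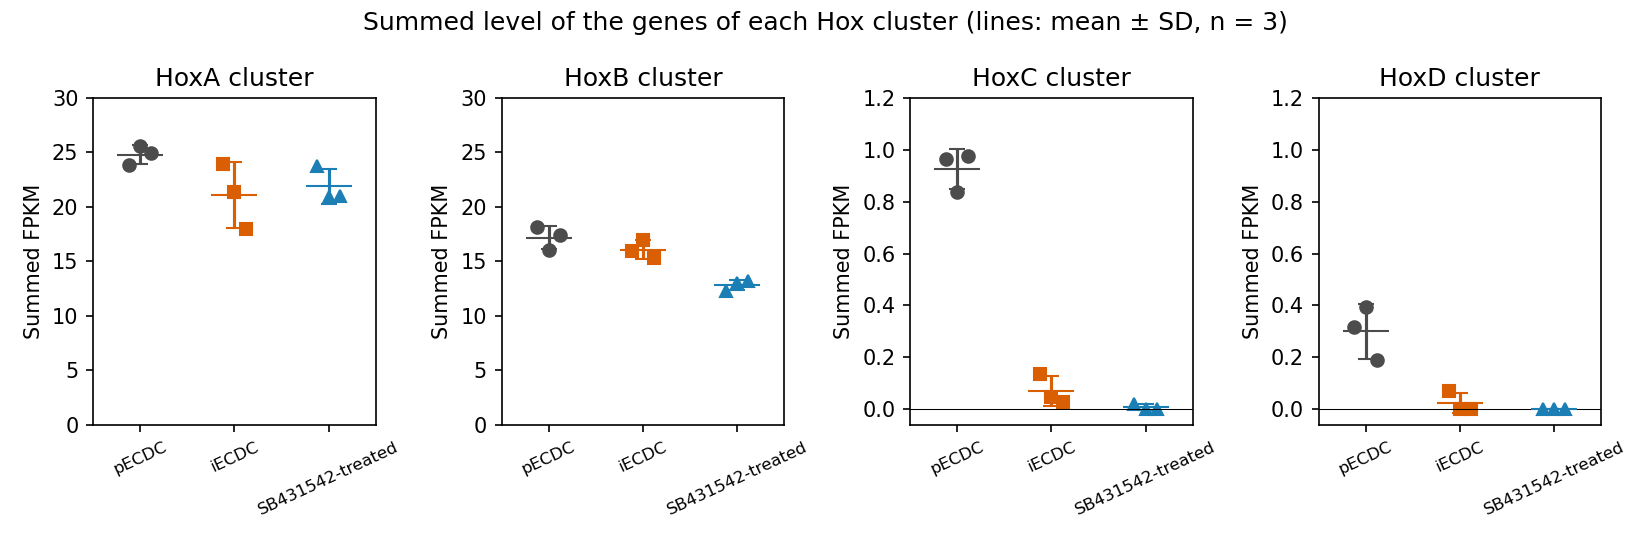
Summed FPKM of the genes of each cluster in each library, with lines for the mean and error bars for the SD of 3 libraries (HoxA and HoxB share one scale, HoxC and HoxD another). HoxC and HoxD sums of all pECDC libraries, from 0.187 FPKM upward, lie above those of all other libraries, and HoxB is lowest in treated cells.

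The comparison of iECDCs with pECDCs asks what differs after immortalisation and growth to passage 30. The expressed HoxA and HoxB genes stayed within 1.36-fold of their pECDC level, and none of them passed the edgeR test, with 1, Hoxa5, at an unadjusted p under 0.05 and 0 called by DESeq2. The genes that fell were low in pECDCs and near or at 0 counts in iECDCs: Hoxc4, Hoxc6 and Hoxd8. In edgeR's quasi-likelihood test, 14 Hox genes had enough counts to be tested and 3 were called at an adjusted p under 0.05, all 3 lower, beside 16.4% of all genes tested (7.21% higher and 9.21% lower). These low genes passed the count filter through their pECDC counts alone, which selects for genes lower in iECDCs. Their share of calls is therefore not support for a change of the family. Hoxb5 passed in the same way and was not called (log2 fold change -0.71, edgeR adjusted p = 0.342). The median log2 fold change of the 14 tested genes was -0.16, beside -0.0018 for all genes tested, and 12 of the 14 were below 0. Over the 10 Hox genes tested in all 3 comparisons, which leaves out Hoxb5, Hoxc4, Hoxc6 and Hoxd8, the median was -0.10. Of these 10, 8 were below 0 and 0 were called.

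Hoxc4 had 19, 19 and 29 counts in the pECDC libraries, 6, 2 and 0 in the iECDC libraries and 0 in all 3 treated libraries. Hoxc6, which like Hoxc4 patterns the neck-to-thorax region, had 22, 13 and 20 counts in pECDCs, 1, 0 and 1 in iECDCs and 0 in the treated libraries. Hoxd8 had 18, 19 and 12 counts in pECDCs and 0 in the other 6 libraries. No iECDC library reached the lowest pECDC library for any of the 3 genes. The log2 fold change of Hoxc4 between iECDCs and pECDCs was -2.66 ± 0.573 (SE, edgeR adjusted p = 0.0142). Hoxc6 was 21.2-fold lower in iECDCs after scaling to library size, with a counting interval of 5.61 to 179.8 because only 2 iECDC counts stand behind it (edgeR adjusted p = 0.00166). Hoxd8 was at least 12.6-fold lower, taking 3 counts over the iECDC group as the limit that a count of 0 allows (edgeR adjusted p = 0.00433). Hoxc6 and Hoxd8 kept their call in all 13 alternative analyses, whereas Hoxc4 lost it without pECDC replicate 3 (adjusted p = 0.0679) and without iECDC replicate 2 (adjusted p = 0.0524). The alternatives reuse the same libraries, in which these genes were selected by their pECDC counts, so a kept call is no further support.

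Hoxc5 showed the same values without passing the count filter of this test. It had 22, 12 and 10 counts in pECDCs and 0 in the other 6 libraries, and was at least 11.3-fold lower in iECDCs and at least 12.3-fold lower in treated cells. Without the filter its edgeR adjusted p was 7.14e-07 for iECDCs against pECDCs and 0.00076 for treated cells against pECDCs. The gene model of Hoxc5 spans Hoxc6, Hoxc8, Hoxc9 and overlaps Hoxc10, and how the counting assigned reads shared by overlapping genes was not given in the sources used here, so the split between Hoxc5 and Hoxc6 is uncertain. Hoxc8, Hoxc9 and Hoxc10 had 1, 0 and 0 counts over the 9 libraries.

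**Figure D4:**
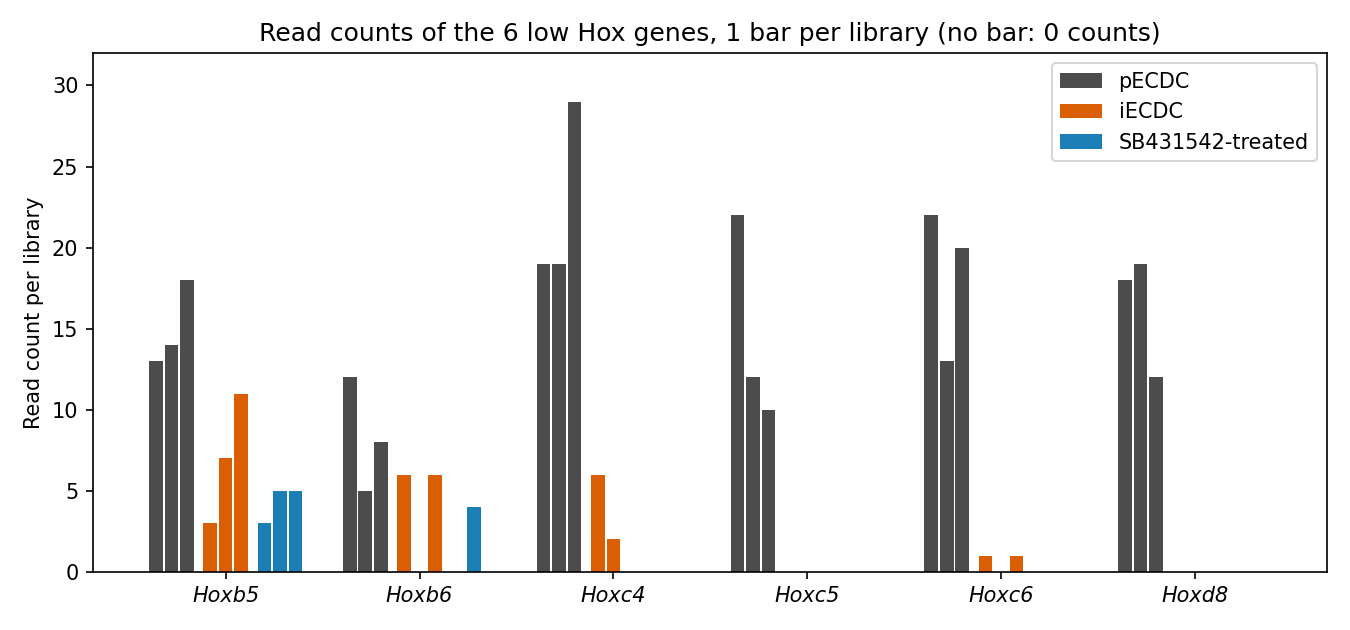
Read counts of 6 low Hox genes in each library, with 1 bar per library and no bar at 0 counts. The pECDC libraries reach 10 to 29 counts for Hoxc4, Hoxc5, Hoxc6 and Hoxd8, where the iECDC libraries hold at most 6 and the treated libraries 0, while Hoxb5 and Hoxb6 keep some counts outside pECDCs.

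Among the expressed genes, Hoxa5 was nearest to the threshold. Its iECDC values, given above, lay below all pECDC values, with a log2 fold change of -0.44 ± 0.162 (SE, edgeR adjusted p = 0.0974). The lowest value, 5.79 FPKM, was that of iECDC library 3, which stood apart. Without that library the log2 fold change was -0.25 and the adjusted p 0.0374, without iECDC replicate 1 they were -0.59 and 0.0427, and without the count filter -0.45 and 0.00324. Hoxa2 and Hoxa3 also did not overlap between the groups, at log2 fold changes of 0.29 ± 0.204 and -0.17 ± 0.105 (adjusted p = 0.367 and 0.290). Hoxb2, Hoxb3 and Hoxb4 stood at -0.04 ± 0.140, -0.08 ± 0.112 and -0.12 ± 0.0963, with adjusted p of 0.877, 0.668 and 0.431.

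Treated cells against iECDCs addresses the inhibitor, as far as the labels describe the treated libraries as the same cells. Hoxa7 rose 1.83-fold, Hoxa3 fell to 0.679-fold and Hoxb2 to 0.536-fold of the iECDC level. In edgeR 10 Hox genes were tested and 3 called, 1 higher and 2 lower, beside 30.0% of all genes tested (16.0% higher and 14.0% lower), so the share of Hox genes called equalled that of all genes. The median log2 fold change of the 10 genes was -0.16, beside 0.0014 for all genes.

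Hoxa7 had 109, 94 and 75 counts in iECDCs and 191, 176 and 179 in treated cells, and its log2 fold change of 0.87 ± 0.175 (SE) passed the test at an adjusted p of 0.00942. It stayed called in all 14 alternatives, with log2 fold changes from 0.61 to 0.97. These leave out the fold threshold, a log2 fold change of at least 1, under which 0 Hox genes were called. Hoxaas3 overlaps Hoxa7 on the opposite strand, and use of strand in the counting was not given in the sources used here. Reads where the 2 genes overlap therefore cannot be told apart in any alternative. Hoxa6, the neighbour of Hoxa7, had 42, 23 and 34 counts in iECDCs and 59, 60 and 55 in treated cells, with a log2 fold change of 0.71 ± 0.251 that did not pass (adjusted p = 0.0643). Hoxa6 passed without treated replicate 2, at an adjusted p of 0.0402 and a log2 fold change of 0.76, without both libraries that stood apart, at 0.0072 and 0.87, and in limma on log2(FPKM + 1) and log2(FPKM + 0.1), at 0.0300 and 0.0324.

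Hoxa3 and Hoxb2 were the genes called lower. Hoxa3 had a log2 fold change of -0.56 ± 0.142 (SE, adjusted p = 0.0218), and its treated libraries spanned 1.86 to 1.89 FPKM. Hoxb2 had one of -0.90 ± 0.243 (SE, adjusted p = 0.0270). Both kept their direction in all 14 alternatives and their call in 9 of them. Hoxa3 lost its call without iECDC replicate 1 or 2 or treated replicate 1 or 3 (adjusted p = 0.0786 to 0.0916) and in the fit with a replicate block (0.0625). Hoxb2 lost it without any 1 of the 3 iECDC libraries or without treated replicate 1 or 3 (0.0549 to 0.103). Without both libraries that stood apart, 5 Hox genes were called. Calls over all genes rose from 4061 to 8951 in that fit, so the 5 are not further support for a change of Hox genes.

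The other expressed genes of the 2 clusters gave smaller or more variable differences. Hoxa2 and Hoxb4 stood at log2 fold changes of -0.64 ± 0.257 and -0.28 ± 0.121 (adjusted p = 0.0931 and 0.113), in both cases with no overlap between the groups. Hoxa2 passed with all 9 libraries in the fit (adjusted p = 0.0388) and in limma on log2(FPKM + 1) and log2(FPKM + 0.1) (0.0338 and 0.0406). Hoxb4 passed with all 9 libraries in the fit (0.0467), without iECDC replicate 3 (0.0484) and without both libraries that stood apart (0.00257), at log2 fold changes of -0.29, -0.37 and -0.34. Hoxa4, Hoxa5 and Hoxb3 stood at log2 fold changes of -0.11, -0.05 and -0.11, each within 1 SE of 0 (SE 0.215, 0.201 and 0.142). Read along HoxA, the fitted differences were negative for Hoxa2 and Hoxa3, close to 0 for Hoxa4 and Hoxa5 and positive for Hoxa6 and Hoxa7. This order is a description made after the values were seen, and the Hoxa3 gene model spans Hoxa4, Hoxa5 and Hoxa6 on the same strand, so reads of these neighbours may be shared. Hoxa3 to Hoxa6 also overlap Hoxaas3 on the opposite strand, as Hoxb2 and Hoxb3 overlap Hoxb3os, with the same limit as for Hoxa7.

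**Figure D5:**
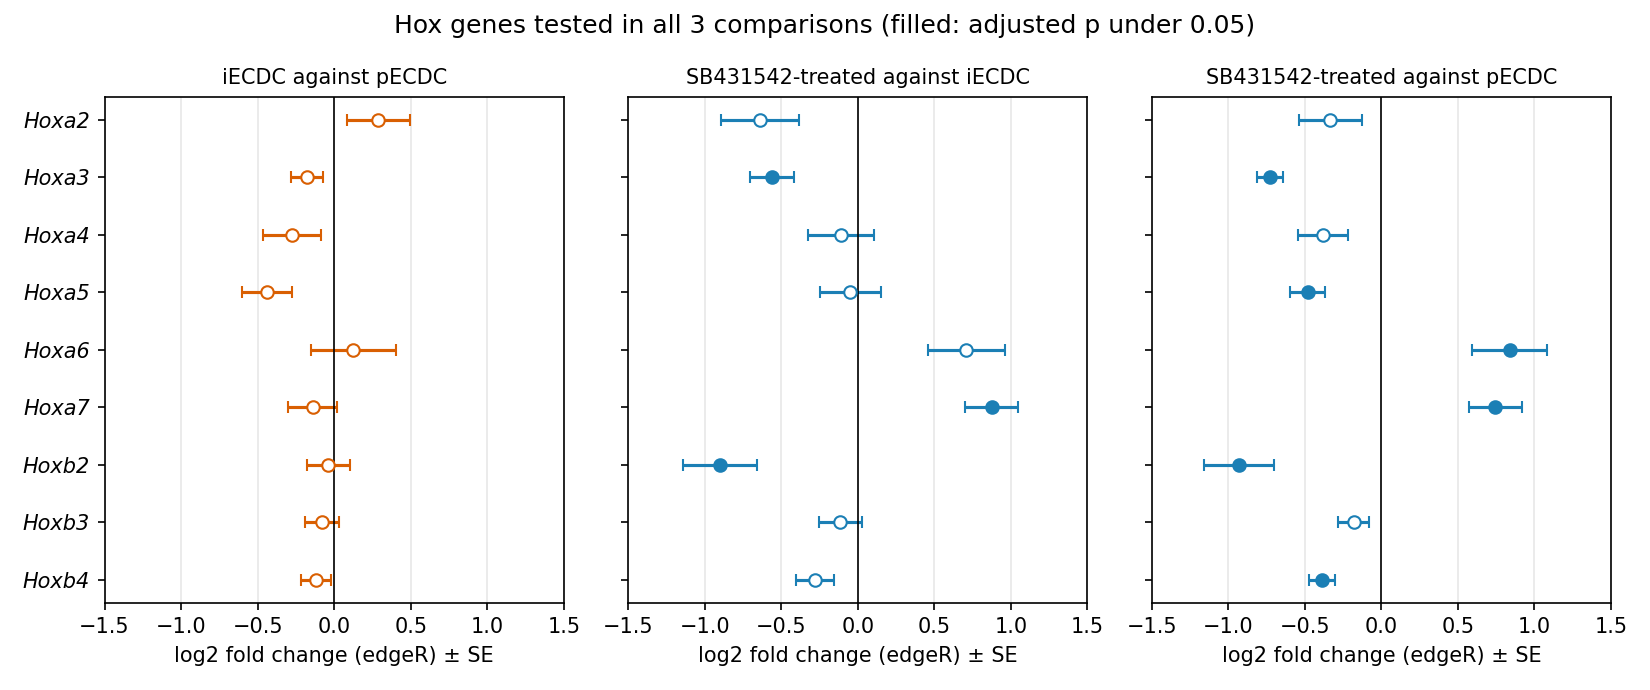
Log2 fold changes from edgeR with their SE for 9 Hox genes tested in all 3 comparisons, with the first-named group over the second. Filled circles have an adjusted p under 0.05; none is filled for iECDC against pECDC, and Hoxa6 and Hoxa7 lie to the right of 0 in both panels of treated cells while the other 7 genes shown lie to the left.

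Treated cells against pECDCs covers the other source named for the treated libraries. Both of this comparison's groups also enter one of the other comparisons, so its values are not independent of them. Hoxa6 and Hoxa7 rose 1.79-fold and 1.68-fold, and 8 genes fell: Hoxa3, Hoxa5, Hoxb2, Hoxb4 and Hoxb5 among those still read in treated cells, and Hoxc4, Hoxc6 and Hoxd8 to 0 counts. Of 14 Hox genes tested in edgeR, 10 were called, 2 higher and 8 lower, beside 34.8% of all genes tested (17.9% higher and 17.0% lower). Of the 10, 4 (Hoxb5, Hoxc4, Hoxc6 and Hoxd8) passed the count filter through pECDCs alone, so the share of 10 in 14 cannot be read against the background without them. The other 10 genes tested are those expressed in every group, and 6 of them were called. The median log2 fold change was -0.36 over these 10 genes and -0.44 over all 14, beside 0.0068 for all genes tested.

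Hoxa3 had the lowest adjusted p, with a log2 fold change of -0.72 ± 0.0850 (SE, adjusted p = 0.0015) and a call in all 13 alternatives. These leave out the fold threshold, which Hoxa3 did not reach. Hoxb2 stood at -0.93 ± 0.228 (adjusted p = 0.0197), Hoxa5 at -0.48 ± 0.111 (0.0157) and Hoxb4 at -0.39 ± 0.0867 (0.0139). Hoxa7 stood at 0.75 ± 0.172 (adjusted p = 0.0155) and Hoxa6 at 0.84 ± 0.247 (0.0361). In none of these 6 genes did the treated and pECDC libraries overlap. The genes were picked by their calls in the same libraries, so this is no further support. Hoxa2, Hoxa4 and Hoxb3 did not pass, at log2 fold changes of -0.33, -0.38 and -0.18, and Hoxa4 passed without treated replicate 2 (-0.44, adjusted p = 0.0221).

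Except for Hoxa3, each of these calls was lost in at least 1 fit that left out a library. Calls over all genes also fell in these fits, from 4881 to 2453, 2522 and 2472 without pECDC replicate 1, 2 or 3. Without treated replicate 1 or 3 they numbered 3181 and 3390. Leaving out pECDC replicate 1 ended the calls of Hoxa5, Hoxa6, Hoxa7, Hoxb2 and Hoxb4 (adjusted p = 0.0612, 0.111, 0.0611, 0.0826 and 0.0686). Without pECDC replicate 2 the adjusted p was 0.0719 for Hoxa5, 0.0599 for Hoxa7, 0.0508 for Hoxb2 and 0.0586 for Hoxb5, and without pECDC replicate 3 it was 0.107 for Hoxa6, 0.0691 for Hoxb2, 0.0650 for Hoxb4 and 0.0695 for Hoxb5. Leaving out treated replicate 1 gave 0.108 for Hoxa6, 0.0547 for Hoxa7, 0.0572 for Hoxb2 and 0.0573 for Hoxb5, and leaving out treated replicate 3 gave 0.0514 for Hoxa5, 0.0855 for Hoxa6 and 0.0648 for Hoxb2. Hoxa6 also lost its call in the fit with a replicate block (0.0721). Every one of these kept its direction.

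The low genes had few reads. Hoxb5 had 13, 14 and 18 counts in pECDCs, 3, 7 and 11 in iECDCs and 3, 5 and 5 in treated cells, with a log2 fold change of -1.51 ± 0.346 (SE, adjusted p = 0.0154) between treated cells and pECDCs. DESeq2 gave Hoxb5 an adjusted p of 0.0599. Hoxb6 had 12, 5 and 8 counts in pECDCs, 6, 0 and 6 in iECDCs and 0, 4 and 0 in treated cells, and did not reach the filter in any comparison. Hoxc4, Hoxc6 and Hoxd8 were at least 18.7-fold, 15.4-fold and 13.7-fold lower in treated cells than in pECDCs (adjusted p = 0.0029, 0.00281 and 0.00479), and stayed called in all 13 alternatives. As above, a kept call is no further support for Hoxc4, Hoxc6 and Hoxd8, which passed the filter through pECDCs. Between treated cells and iECDCs these genes had too few reads to be tested: the 8 iECDC counts of Hoxc4 against 0 gave an adjusted p of 0.0739 once the filter was dropped.

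The Hox cofactors, the Pbx, Meis and Pknox (Prep) homeodomain proteins that bind DNA alongside Hox proteins, were all expressed, with 9 of 9 tested in each comparison. The shares of all genes called, 16.4%, 30.0% and 34.8% in the order of the 3 comparisons above, are the background for the counts of this and the following gene lists. In iECDCs against pECDCs 0 were higher and 2 lower, among them Meis1 at a log2 fold change of -0.33 ± 0.0748 (adjusted p = 0.0189). Against iECDCs 3 of the 9 rose in treated cells and 0 fell, a share near the 30.0% of all genes, among them Meis1 at 0.71 ± 0.159 (adjusted p = 0.0142) and Pknox2 at 0.69 ± 0.128 (0.00731). Meis1, at 7.93 ± 0.280 FPKM in pECDCs, 6.38 ± 0.512 in iECDCs and 10.3 ± 2.02 in treated cells (SD, n = 3), thus had its lowest mean in iECDCs. Against pECDCs 4 of the 9 rose in treated cells and 1 fell, among them Pknox2 at 0.67 ± 0.103 and Meis3 at 0.47 ± 0.0846 (adjusted p = 0.00363 and 0.00646). The Meis1 call in iECDCs was lost without any 1 of the pECDC libraries (adjusted p = 0.0677 to 0.103) and with all 9 libraries in the fit (0.211), and its call in treated cells against iECDCs without iECDC replicate 1 or 2 or treated replicate 1 or 3 (0.0501 to 0.0560).

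Of 30 genes known to set or hold Hox expression, 25, 25 and 26 were tested in the 3 comparisons. In iECDCs against pECDCs 1 was higher and 4 lower, which with 5 of 25 called was close to the 16.4% of all genes. Ezh2, the catalytic subunit of the Polycomb repressive complex that methylates histone H3, rose by 0.49 ± 0.0598 on the log2 scale (adjusted p = 0.000822), while the zinc finger gene Zfp503 stood at -0.63 ± 0.0797 (0.00105). With all 9 libraries in the fit both lost this call (adjusted p = 0.0827 and 0.184). Treated cells set against iECDCs gave 6 higher and 2 lower of 25, close to the 30.0% of all genes, with Zfp503 at 2.01 ± 0.277 (adjusted p = 0.0024), Cbx7 at 1.69 ± 0.292 (0.00554) and Ezh2 at -0.91 ± 0.165 (0.00669). Ezh2, at 11.5 ± 0.177 FPKM in pECDCs, 16.3 ± 0.643 in iECDCs and 8.62 ± 2.14 in treated cells (SD, n = 3), was thus the highest in iECDCs. Set against pECDCs, 7 were higher in treated cells and 4 lower of 26, beside 34.8% of all genes, with Cbx7 at 1.42 ± 0.276 (adjusted p = 0.00831), Zfp503 at 1.39 ± 0.284 (0.0102) and Ezh1, the paralog of Ezh2, at 0.80 ± 0.183 (0.0153). Zfp503 against pECDCs in treated cells lost its call without pECDC replicate 1 (adjusted p = 0.0505), and Ezh1 without pECDC replicate 1 or 2 or treated replicate 1 or 3 (0.0522 to 0.0676).

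Regional transcription factors outside the Hox clusters included genes read only or nearly only in pECDCs. Of a list of 45, 27 were tested in iECDCs against pECDCs, with 4 higher and 15 lower, beside 16.4% of all genes called. Of these, 7 were not tested between treated cells and iECDCs, Barx1, Nkx2-5 and Tbx4 among them, and all 7 were called lower. They passed the count filter through pECDCs, which selects for genes lower in the other groups. The count of 15 is therefore not support for a change of the list. Among the 20 tested in all 3 comparisons 4 were higher and 8 lower, with a median log2 fold change of -0.13, beside -0.0018 for all genes. The factors read in pECDCs and at or near 0 in both other groups were the most extreme: Barx1, a stomach and branchial arch gene, at 11.7 ± 0.892 FPKM in pECDCs and at most 1 count in any other library, the heart factor Nkx2-5 at 2.08 ± 0.319 FPKM, and the hindlimb and lung factor Tbx4 at 1.26 ± 0.153 FPKM, the last 2 with 0 counts in all 6 other libraries. Between treated cells and pECDCs 27 were tested, with 4 higher and 10 lower, or 4 and 3 among the 20 tested in all comparisons, beside 34.8% of all genes, and the same 3 genes had the largest fitted differences among those of at least 1 FPKM. Between treated cells and iECDCs 20 were tested, with 2 higher and 3 lower, beside 30.0% of all genes. There Prrx1, a limb and craniofacial mesenchyme factor, stood at 0.87 ± 0.154 (adjusted p = 0.00615) and the heart factor Gata6 at 0.79 ± 0.231 (0.0350). Gata6 lost its call without any 1 of the iECDC libraries and without treated replicate 1 or 3 (0.0912 to 0.121), and in limma on log2(FPKM + 1) and log2(FPKM + 0.1) (0.0657 and 0.0619).

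Inside the Hox clusters the table lists 46 further genes, mostly antisense and noncoding transcripts, of which 28 were at 0 counts in all 9 libraries. None of the 7 tested was called by edgeR in iECDCs against pECDCs or in treated cells against iECDCs, where 0 also had an unadjusted p under 0.05 and 0 were called by DESeq2, and 0 were higher and 1 of 8 lower in treated cells against pECDCs. That gene was Hotairm1, an antisense transcript of the HoxA cluster, at 3.76 ± 0.390 FPKM in pECDCs, 3.36 ± 0.965 in iECDCs and 2.32 ± 0.424 in treated cells (log2 fold change -0.68 ± 0.196, adjusted p = 0.0332). Hotairm1 overlaps another gene on the opposite strand, and since use of strand in the counting was not given in the sources used here, reads cannot be told apart where they overlap. Its call was lost without any 1 of the pECDC libraries and without treated replicate 1 or 3 (adjusted p = 0.0623 to 0.120), and with a replicate block (0.0701).

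Protein-coding genes within 200 kb outside the cluster ends numbered 16, of which 10 were tested. In iECDCs against pECDCs 1 was higher and 0 lower, beside 16.4% of all genes called, namely Igf2bp1 at 0.36 ± 0.0723 (adjusted p = 0.0103), an RNA-binding protein gene that lies beyond HoxB. In treated cells against iECDCs 1 was higher and 2 lower, the same share as the 30.0% of all genes, with Calcoco1 beyond HoxC at 1.34 ± 0.200 (adjusted p = 0.0032), Igf2bp1 at -0.82 ± 0.144 (0.00588) and Lnpk beyond HoxD at -0.52 ± 0.116 (0.0137). In treated cells against pECDCs 1 was higher and 4 lower, beside 34.8% of all genes, among them Calcoco1 at 1.10 ± 0.174 (0.00393), Lnpk at -0.56 ± 0.0733 (0.00212) and Atp5g1 at -0.48 ± 0.146 (0.0416). Igf2bp1 in iECDCs lost its call without any 1 of the pECDC libraries (adjusted p = 0.0502 to 0.0661) and with all 9 libraries in the fit (0.139), Lnpk against iECDCs without iECDC replicate 2 or treated replicate 1 or 3 (0.0522 to 0.0658), and Atp5g1 without any 1 of the pECDC libraries or treated replicate 1 or 3 (0.101 to 0.137). No flanking gene was called lower in iECDCs against pECDCs by edgeR, and 3 of the 10 had an unadjusted p under 0.05, with 1 called by DESeq2.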

How the data were processed

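The authors deposited a table of read counts per gene and FPKM values (fragments per kilobase of gene model, scaled to the library total) for 9 RNA-seq libraries; the submitters' processing notes name TopHat2 2.0.9, Bowtie2 2.0.6 and mm9, but the coordinates of 53462 of 54532 genes, and of 38 of the 40 Hox identifiers, equal those of GENCODE M21 on GRCm38. The counting program and its use of strand were not given in the sources used here. The labels name a TruSeq kit, the study's methods an NEBNext or an oligo(dT) protocol. The authors' own columns of group means and of their own comparisons (log2 fold changes with raw and adjusted p-values) were not used.

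Each pair of groups was fitted on the deposited counts with edgeR 4.0.16 (R 4.3.3): filterByExpr with a minimum count of 10 and a minimum total of 15, TMM factors, estimateDisp, glmQLFit and glmQLFTest, two-sided, with Benjamini-Hochberg adjustment over all genes tested and a threshold of 0.05. The fits were tested on simulated data. Levels are the deposited FPKM. A count of 0 was bounded by 3 counts summed over the group. The alternatives were DESeq2 1.42.0, limma 3.58.1 on log2(FPKM + 1) and log2(FPKM + 0.1), RLE size factors and no count filter. Further ones were all 9 libraries in the fit, a replicate block and leaving out each library. Leaving out both libraries that stood apart was added after seeing the data. A fold threshold was applied to the counts of calls only and is not among the alternatives counted for single genes. Members were counted in full, with values per library for reported ones with a group mean of at least 1 FPKM or a call; of each gene list the 3 called genes with the largest fold change and at least 1 FPKM were named. Some genes counted in the totals are not reported here by name. The members and lists were chosen with earlier results of these data known. Upstream windows came from RefSeq.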

Additional observations from a re-analysis of the deposited data

How the results depend on the processing

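No Hox gene called in any comparison turned its direction under any alternative; of 504 values of single genes under the alternatives, 456 kept their side of the threshold, 34 lost a call and 14 gained one. For iECDCs against pECDCs 3 Hox genes were called, 5 without the count filter, and 3 to 5 when single libraries were left out. For treated cells against iECDCs 3 were called, 6 with all 9 libraries in the fit, 5 by limma with either pseudocount, 5 without both libraries that stood apart, 0 with a log2 fold change of at least 1 asked for, and 1 to 4 when single libraries were left out. For treated cells against pECDCs 10 were called, 4 with the fold threshold, and 5 to 12 when single libraries were left out. The causes of these shifts were not tested. With the replicate number as a block, 3, 2 and 9 Hox genes were called in the 3 comparisons. No pairing by number was seen, as same-numbered libraries correlated at -0.207 to 0.033 in their deviations from the group means. With 3 libraries per group these correlations cannot exclude a small shared effect. Over all genes the calls numbered 2258, 4061 and 4881, and 1036 to 4467, 1707 to 7001 and 2453 to 9188 when single libraries were left out; they were 512, 1434 and 1330 with the fold threshold, 671 for iECDCs against pECDCs with all 9 libraries in the fit, and 8951 for treated cells against iECDCs without both libraries that stood apart. Depth limits the low genes: 10 to 29 counts in a pECDC library lie close to the count filter.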
